A study of Mus musculus with 6 samples.

Results

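The 10 genes described here encode the transcription factors that set and hold granulosa cell identity: Foxl2, Gata4, Gata6, Nr5a1, Nr5a2, Wt1, Esr2, Lhx9, Emx2 and Runx1. They and the gene lists below were chosen with earlier results of these data known. The 10 were taken by symbol from the 55487 genes in the count files. Each symbol matched 1 Ensembl identifier, and all 10 passed the filter on low counts. RNA sequencing had been done on 3 libraries titled CPC, from wild-type cells given cetylpyridinium chloride, a quaternary ammonium antiseptic, and 3 titled Con, from wild-type cells given phosphate-buffered saline. Titles and cell type fields give ovarian granulosa cells, which line the follicle around the egg, and the series title places the study in mouse ovaries with apoptosis and follicular atresia. The sources used here give no dose, duration, strain or age, and do not say if exposure was in the animal or in culture. Other fields, alike in both groups, name the human ovarian cancer line SKOV3 and a transfection with GATA4. The counts are on mouse genes. The labels tie no replicate to an animal or culture of its own, and p-values therefore reflect only library-to-library spread, possibly technical.

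Granulosa cells arise from the gonadal ridge, where WT1, LHX9, EMX2, GATA4 and the nuclear receptor SF-1 (the product of Nr5a1) are needed for the gonad to form. FOXL2 and RUNX1 then keep the supporting cells of the mouse ovary from turning towards Sertoli cells of the testis. In the follicle, SF-1 and its paralog LRH-1 (the product of Nr5a2), the GATA factors and the estrogen receptor ERβ (the product of Esr2) bind the promoters of genes for steroid synthesis, inhibins and gonadotropin receptors.

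Library totals ranged from 19837674 to 22535261 counts in CPC and from 19079345 to 23157541 in control. Of 15000 genes tested with edgeR's quasi-likelihood test, 19.6% were higher and 19.7% lower in CPC at an adjusted p of 0.05, or 39.3% in either direction. Libraries with equal replicate numbers deviated together, and a fit with that number as a block called 26.5% higher and 27.9% lower, or 54.4% in either direction. Without replicate 1 of both groups edgeR called 928 genes higher and 1033 lower, against 2945 and 2954 with all libraries. Of 17 granulosa markers, 2 of them members and 10 shared with the target genes below, 16 were tested. In CPC 10 were lower and 0 higher (1 higher at an unadjusted p under 0.05, 0 by DESeq2), with 3 lower and 0 higher without replicate 1 of both groups (9 and 0 unadjusted, 6 and 0 by DESeq2). The 10 are 62.5%, against 19.7% of all tested genes. With the block 12 were lower and 1 higher, or 75.0% and 6.25% against 27.9% and 26.5% of all tested genes. Amh, which encodes anti-Müllerian hormone, had at most 3 counts in every library. Cyp19a1, which encodes aromatase, had 13, 17 and 29 counts in CPC 1 to 3 and 8, 14 and 9 in control 1 to 3. Inha and Inhba, which encode inhibin and activin subunits, had at least 19494 counts in each library. Of the oocyte markers, none of 11 passed the filter, and the theca markers Cyp17a1 and Insl3 had at most 3 counts in every library. Leukocyte markers summed to 14.8 to 39.5 CPM (counts scaled to library size) in CPC and 200.3 to 325 CPM in control. Surface epithelium markers summed to 473, 98.4 and 108 CPM in CPC 1 to 3 and 412, 160 and 183 CPM in control 1 to 3, highest in replicate 1 of both groups. Of 10 tested surface epithelium markers edgeR called 0 (0 also at an unadjusted p under 0.05 and by DESeq2), but 4 lower and 1 higher with the block and 2 lower without replicate 1 of both groups. Of 4 endothelium markers it called 0 (0 unadjusted and by DESeq2), and 1 lower with the block. Theca and stroma markers, 14 in all, summed to 1833, 1608 and 661 CPM in CPC 1 to 3. In control 1 to 3 they summed to 1516, 964 and 976 CPM. Of the 11 tested, 1 was higher and 0 lower, or 1 and 2 with the block. In bulk RNA, fewer cells of a type and less RNA per cell cannot be told apart.

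Of the 10 factor genes 3 were lower in CPC and 0 higher. Foxl2, Runx1 and Nr5a2 fell by 0.94, 0.73 and 0.66 on the log2 scale, and the other 7 did not pass the threshold. The 3 of 10 compare with 19.7% of all tested genes, and 0 of 10 higher with 19.6%. Higher members numbered 0 also by DESeq2, by limma-voom and at an unadjusted p under 0.05. The median log2 change of the 10 was -0.32, against 0.00 over all tested genes. With the replicate block 6 of 10 were lower, where Esr2, Wt1 and Nr5a1 joined those 3, against 27.9% of all tested genes. In that fit Gata6 was higher, 1 of 10 against 26.5%. In 5 members the groups did not overlap (Foxl2, Nr5a1, Nr5a2, Esr2 and Runx1), as in 53.5% of all tested genes. The CPC library was below the control library of equal number in all 3 pairs for 6 members, 60%, against 37.6% of all tested genes. It was above it in all 3 pairs for Gata6 and Emx2, 20% of members against 36.3%. Without replicate 1 of both groups edgeR called 0 members lower, with 3 lower at an unadjusted p under 0.05 and 1, Foxl2, by DESeq2. Among all genes edgeR called 1033 lower in that setting, against 2954 with all libraries. Emx2 was called higher without CPC 3 and without replicate 3 of both groups.

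**Figure D1:**
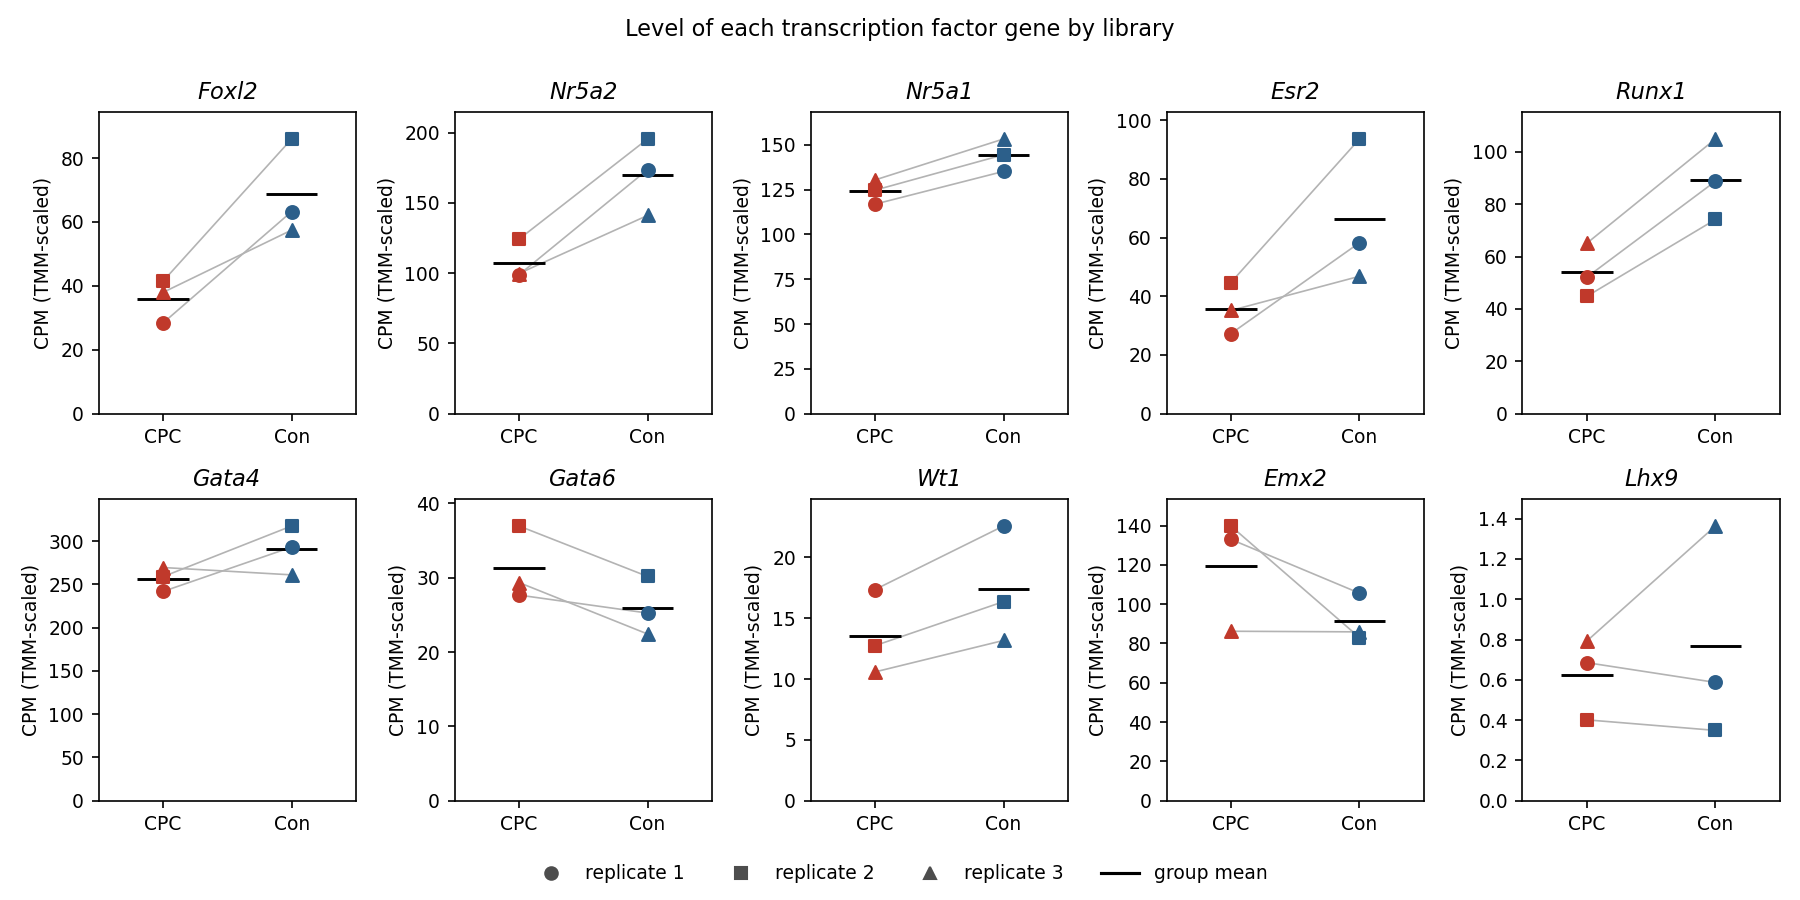
Level of each factor gene in CPM with TMM scaling (vertical axes start at 0) in CPC and control libraries. Markers give the replicate number, grey lines join equal numbers and bars are means. Foxl2, Nr5a2, Nr5a1, Esr2 and Runx1 have no control library at or below a CPC library, while Gata4, Gata6, Wt1, Emx2 and Lhx9 overlap.

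**Figure D2:**
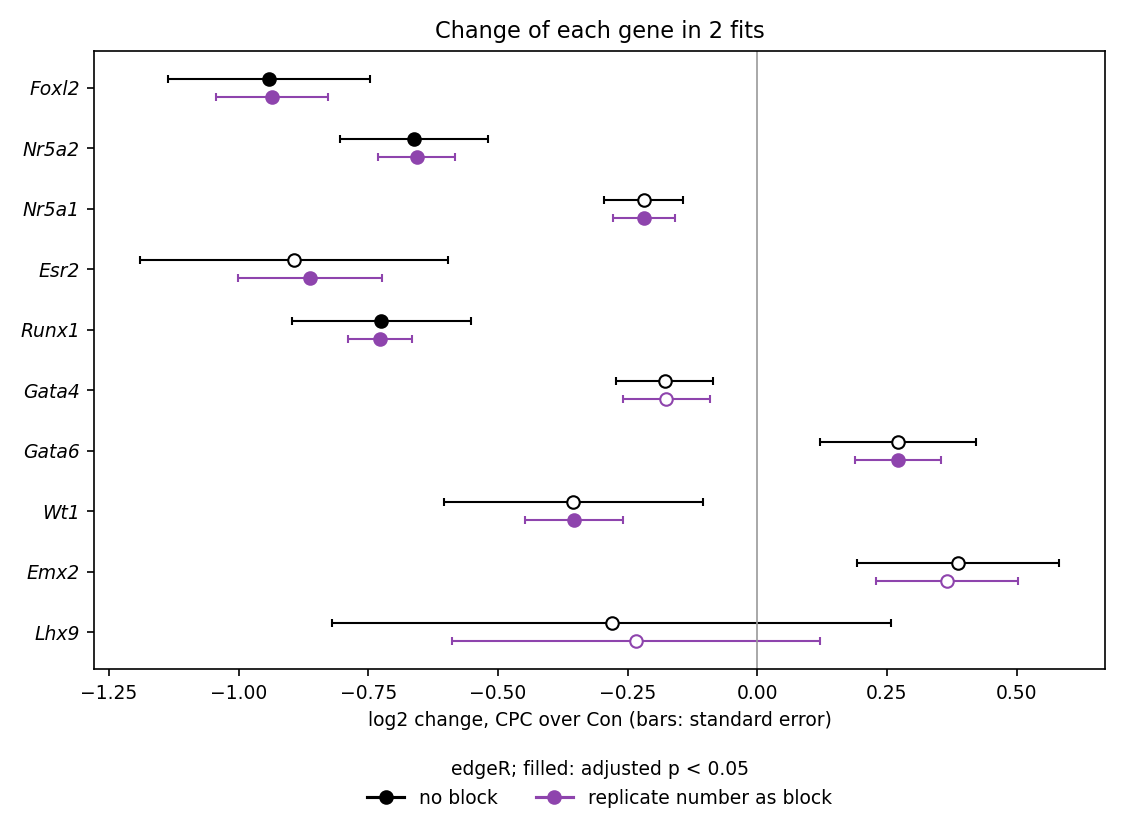
Log2 change of CPC over control with its standard error for each factor gene, from edgeR without (black) and with (purple) the replicate number as a block. Filled points passed an adjusted p of 0.05: 3 genes without the block and 7 with it.

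Foxl2 encodes the forkhead factor that holds granulosa identity in the adult ovary. It lies on chromosome 9 from 98955288 to 98958543 on the plus strand of GRCm38.p6 (ENSMUSG00000050397). It had 28.4, 41.4 and 37.9 CPM in CPC 1 to 3 and 63.3, 86.0 and 57.5 CPM in control 1 to 3. Every CPC library was below every control library, and CPC 1 was lowest and control 2 highest. The means were 35.9 ± 6.77 CPM in CPC and 68.9 ± 15.1 CPM in control (SD, n = 3 each). The log2 change was -0.94 ± 0.19 (standard error; edgeR adjusted p = 0.00969), or -0.94 ± 0.11 with the replicate block (adjusted p = 2.29e-04). Over the alternatives the adjusted p ran between 4.17e-05 and 0.0561. The highest value came without replicate 1 of both groups, where the change was -0.85 and the call was lost.

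Nr5a2 and Nr5a1 encode orphan nuclear receptors that read the same DNA element. Nr5a2 (ENSMUSG00000026398) lies on chromosome 1 from 136842571 to 136960448 on the minus strand. It had 98.7, 124 and 99.7 CPM in CPC 1 to 3 and 174, 195 and 141 CPM in control 1 to 3. The groups did not overlap, and replicate 2 was highest in both. Its mean was 108 ± 14.4 CPM in CPC and 170.0 ± 27.4 CPM in control (SD, n = 3 each), a log2 change of -0.66 ± 0.14 (standard error; edgeR adjusted p = 0.0106; 1.44e-04 with the block). Without replicate 1 of both groups the change was -0.59 and the call was lost (adjusted p = 0.106). Nr5a1 (ENSMUSG00000026751) lies on chromosome 2 from 38692656 to 38714542 on the minus strand. It had 117, 125 and 130.4 CPM in CPC 1 to 3 and 135, 145 and 153 CPM in control 1 to 3. The groups did not overlap, and the log2 differences between libraries of equal number were -0.21, -0.21 and -0.23. Its log2 change of -0.22 ± 0.08 did not pass (edgeR adjusted p = 0.0557) and passed with the block (adjusted p = 0.0135). It passed with a filter of 5 CPM in 3 libraries too (0.0333). The log2 ratio of Nr5a1 to Nr5a2, each per kilobase of exon, was 0.93, 0.69 and 1.07 in CPC 1 to 3 and 0.32, 0.25 and 0.80 in control 1 to 3. CPC was above control in each pair, but control 3 lay above CPC 2. The difference of 0.44 had p = 0.2 (exact permutation test, two-sided; p = 0.3 adjusted over 3 ratios), where this unpaired test allows no p below 0.1. Within the pairs the ratio differed by 0.61, 0.44 and 0.27, and an exact sign-flip test over the pairs, chosen after seeing the data, gave p = 0.25, the smallest that 3 pairs allow.

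Esr2 encodes ERβ, the main estrogen receptor of granulosa cells. The gene (ENSMUSG00000021055) lies on chromosome 12 from 76120419 to 76177259 on the minus strand. It had 27.2, 44.7 and 35.1 CPM in CPC 1 to 3 and 58.2, 93.6 and 46.8 CPM in control 1 to 3. The groups did not overlap, although CPC 2 and control 3 lay close. The means were 35.7 ± 8.71 CPM in CPC and 66.2 ± 24.4 CPM in control (SD, n = 3 each). The log2 change of -0.89 ± 0.30 missed the threshold (edgeR adjusted p = 0.0542). With the replicate block Esr2 fell by 0.86 on the log2 scale (adjusted p = 0.00232). It passed by DESeq2 (0.00463), with the 5 CPM filter (0.0459), without control 3 (-1.09; 0.0368) and without replicate 2 of both groups (-0.74; 0.0474). Without control 2, the highest library, the change was -0.56 (0.102). Its paralog Esr1, which encodes ERα, had 164, 78 and 72 counts in CPC 1 to 3 and 138, 122 and 124 in control 1 to 3. Its log2 change was -0.37 ± 0.30 (adjusted p = 0.369). Per kilobase Esr2 exceeded Esr1 in every library. The log2 ratio of Esr1 to Esr2 was -2.96, -4.51 and -4.39 in CPC 1 to 3 and -3.98, -5.14 and -4.00 in control 1 to 3. The groups overlapped, and the difference of 0.42 had p = 0.6 (exact permutation test, two-sided; 0.5 by the exact sign-flip test over the pairs). Without CPC 1 that difference was -0.076.

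Runx1 encodes a runt-domain factor of supporting cells that also acts in blood cells. The gene (ENSMUSG00000022952) lies on chromosome 16 from 92601466 to 92826149 on the minus strand. It had 52.1, 44.8 and 65.1 CPM in CPC 1 to 3 and 88.8, 74.2 and 105 CPM in control 1 to 3. The groups did not overlap, and in both of them replicate 3 was highest and replicate 2 lowest. The means were 54.0 ± 10.3 CPM in CPC and 89.3 ± 15.4 CPM in control (SD, n = 3 each). The log2 change was -0.73 ± 0.17 (standard error; edgeR adjusted p = 0.0160). The log2 differences in the pairs were -0.76, -0.72 and -0.68, and the adjusted p with the block was 3.22e-05. The call was lost without CPC 1 (-0.69; adjusted p = 0.0571) and without replicate 1 of both groups (-0.70; 0.126). Leukocyte markers moved the same way, with 9 of 10 tested lower and the sums of 14.8 to 39.5 CPM in CPC and 200.3 to 325 CPM in control given above. Their part in the fall of Runx1 was not tested. Runx2, a paralog, had 1432, 1362 and 1646 counts in CPC 1 to 3 and 1775, 2190 and 2538 in control 1 to 3. It fell by 0.59 ± 0.12 on the log2 scale (adjusted p = 0.00889), a call lost without replicate 1 (0.0613) or 2 (0.0573) of both groups. Cbfb, which encodes the shared binding partner of runt-domain factors, had 156.5 ± 9.61 CPM in CPC and 144 ± 10.04 CPM in control (SD, n = 3 each; adjusted p = 0.269). Runx3 had at most 13 counts in a library and was not tested.

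Gata4 and Gata6 encode zinc finger factors that share a DNA element and act together in granulosa cells. Gata4 (ENSMUSG00000021944) lies on chromosome 14 from 63198922 to 63271692 on the minus strand. It had 242, 259 and 269 CPM in CPC 1 to 3 and 293, 317 and 261 CPM in control 1 to 3. CPC was lower in 2 pairs and higher in the third, and the log2 change of -0.18 ± 0.09 did not pass with or without the block (edgeR adjusted p = 0.109 and 0.171). It was -0.11 without control 2, and -0.10 and -0.29 without replicate 2 and replicate 3 of both groups. Gata6 (ENSMUSG00000005836) had 27.7, 37.0 and 29.4 CPM in CPC 1 to 3 and 25.3, 30.2 and 22.4 CPM in control 1 to 3. The groups overlapped, and CPC was higher in all 3 pairs. Its log2 change of 0.27 ± 0.15 did not pass (adjusted p = 0.192), and it was higher with the block (adjusted p = 0.0229). Without the block, the Gata6 change was 0.15 without CPC 2 and 0.17 without control 3. Per kilobase of exon, Gata4 exceeded Gata6 8.31-, 6.66- and 8.73-fold in CPC 1 to 3 and 11.04-, 10.0- and 11.1-fold in control 1 to 3. These folds depend on the exon length in the files, with mean log2 ratios of 2.97 in CPC and 3.42 in control. With the union of exons in GENCODE M21, chosen after seeing the data, the means were 3.78 and 4.23. Some label fields of both groups name a transfection with GATA4, whose part in these levels was not tested. The ratio was lower in every CPC library than in every control library. The log2 difference was -0.45, with p = 0.1, the smallest that this unpaired test allows (exact permutation test, two-sided; p = 0.3 adjusted over 3 ratios). Within the pairs it was -0.41, -0.59 and -0.34, with p = 0.25 by the exact sign-flip test, again the smallest possible. Without 1 library it was -0.52 to -0.33.

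**Figure D3:**
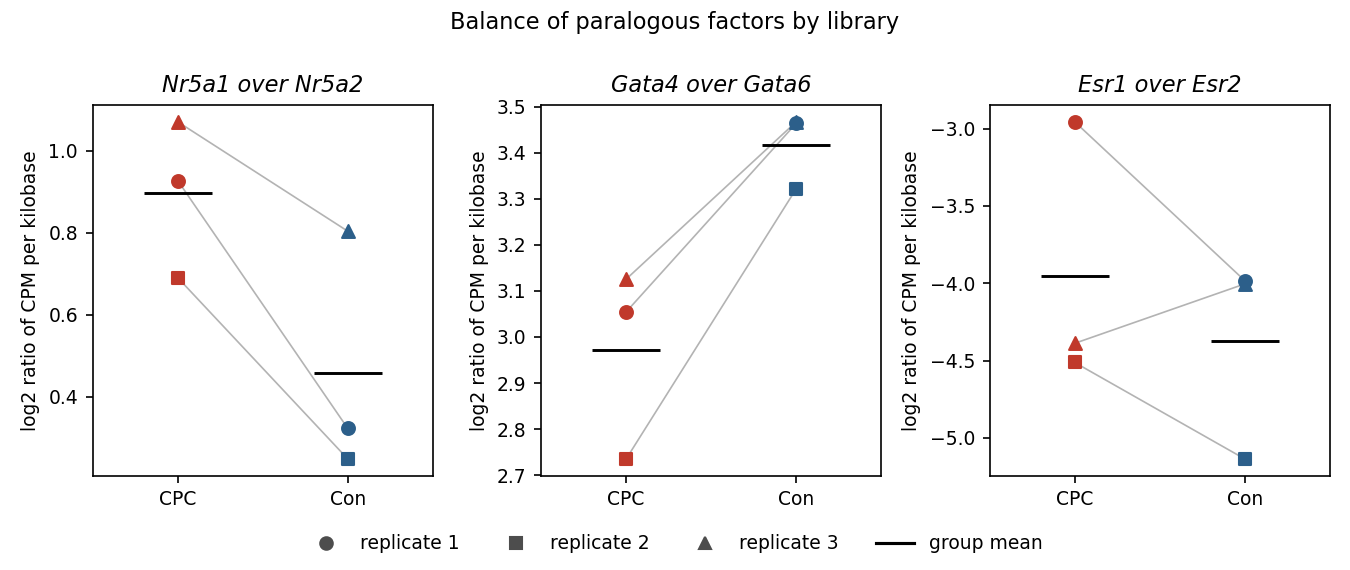
Log2 ratio of the CPM per kilobase of exon of paralogous factors in each CPC and control library. Markers give the replicate number, grey lines join equal numbers and bars are means. The Gata4 to Gata6 ratio has no overlap between the groups, while the Nr5a1 to Nr5a2 and Esr1 to Esr2 ratios overlap.

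Wt1, Emx2 and Lhx9 are factors of the gonadal ridge, and WT1 also marks the ovarian surface epithelium. Wt1 (ENSMUSG00000016458; chromosome 2, 105126529 to 105173616, plus strand) had 17.4, 12.7 and 10.6 CPM in CPC 1 to 3 and 22.6, 16.4 and 13.2 CPM in control 1 to 3. The groups overlapped, and in each of them replicate 1 was highest. The log2 differences in the pairs were -0.37, -0.35 and -0.30. The change of -0.35 ± 0.25 did not pass (edgeR adjusted p = 0.299), and Wt1 fell in the blocked fit (-0.35 ± 0.09; adjusted p = 0.0121). Without the block, single libraries moved the Wt1 change to -0.12 (without control 1), -0.20 (without CPC 3) and -0.56 (without CPC 1). The surface epithelium markers were likewise highest in replicate 1 of both groups, and 4 of 10 tested were lower and 1 higher in the blocked fit. Their part in the level of Wt1 was not tested. Emx2 (ENSMUSG00000043969; chromosome 19, 59458372 to 59465357, plus strand) had 133, 139.8 and 86.2 CPM in CPC 1 to 3 and 106, 83.0 and 85.9 CPM in control 1 to 3. CPC 1 and CPC 2 stood above all controls and CPC 3 at the control level. The log2 change of 0.39 ± 0.19 did not pass (adjusted p = 0.158; 0.0651 with the block). Without CPC 3 it was 0.58 and passed (adjusted p = 0.0134), as it did without replicate 3 of both groups (0.53; 0.0268), and it was 0.21 without replicate 2 of both groups. Lhx9 (ENSMUSG00000019230; chromosome 1, 138825186 to 138848577, minus strand) had 16, 8 and 17 counts in CPC 1 to 3 and 11, 8 and 29 in control 1 to 3. Its log2 change of -0.28 ± 0.54 turned to 0.44 without control 3 and 0.24 without replicate 3 of both groups, so no direction was detectable at this depth.

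Promoter sequences from RefSeq on GRCm38.p6 (250 bases before the start site and 50 from it on) were at hand for 6 of the 10 genes, with 8 start sites. The 4 shown belong to the members with the largest falls in either fit, and both genes with several start sites are shown by the most upstream. Capitals mark letters of 4 motifs searched on both strands: AGATAA or TGATAA for GATA factors, AAGGTCA for NR5A receptors, TAAACA for forkhead factors and TGTGGT for runt-domain factors.
Foxl2, chr9:98955357-98955656, plus strand: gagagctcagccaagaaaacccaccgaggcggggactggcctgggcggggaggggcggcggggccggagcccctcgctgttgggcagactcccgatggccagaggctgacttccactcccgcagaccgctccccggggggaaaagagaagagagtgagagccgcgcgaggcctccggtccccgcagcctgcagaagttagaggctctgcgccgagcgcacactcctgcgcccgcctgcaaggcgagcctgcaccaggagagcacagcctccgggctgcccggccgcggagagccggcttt
Esr2, chr12:76177210-76177509, minus strand: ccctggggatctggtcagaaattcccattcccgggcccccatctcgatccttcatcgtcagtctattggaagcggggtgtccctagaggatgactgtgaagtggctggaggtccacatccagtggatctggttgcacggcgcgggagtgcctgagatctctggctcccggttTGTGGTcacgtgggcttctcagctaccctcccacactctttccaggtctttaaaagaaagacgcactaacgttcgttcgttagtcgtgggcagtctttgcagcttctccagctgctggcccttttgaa
Nr5a2, chr1:136960399-136960698, minus strand: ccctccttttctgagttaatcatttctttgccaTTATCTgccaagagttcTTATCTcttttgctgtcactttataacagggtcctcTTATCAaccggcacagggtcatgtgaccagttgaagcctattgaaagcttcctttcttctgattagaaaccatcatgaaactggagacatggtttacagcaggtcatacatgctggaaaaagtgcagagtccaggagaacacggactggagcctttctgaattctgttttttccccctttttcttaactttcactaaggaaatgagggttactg
Runx1, chr16:92826025-92826324, minus strand: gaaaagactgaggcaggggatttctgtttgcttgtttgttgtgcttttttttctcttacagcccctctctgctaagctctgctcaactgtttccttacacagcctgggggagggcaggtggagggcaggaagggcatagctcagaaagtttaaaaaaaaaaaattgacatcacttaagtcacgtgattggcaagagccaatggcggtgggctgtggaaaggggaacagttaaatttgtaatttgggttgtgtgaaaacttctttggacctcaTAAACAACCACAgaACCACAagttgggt
RefSeq's start site for Foxl2 lies 319 bases inside the gene as the files place it, so that window holds no sequence upstream of the files' gene start. The Runx1 start site lies 75 bases inside its gene, and those of Esr2 and Nr5a2 fall on the gene start. The Foxl2 window held none of the 4 motifs and had 71.3% G and C. The Nr5a2 window had 42.0% G and C and held 3 GATA motifs on the reverse strand, which start 217, 200 and 164 bases before the start site. The Esr2 window held 1 runt-domain motif 78 bases before it. In the Runx1 window a forkhead motif at base 23 after the start site was followed by runt-domain motifs on the reverse strand at bases 29 and 37. Of the 8 member windows 3 held a GATA motif, 0 an NR5A motif, 2 a forkhead motif and 2 a runt-domain motif. The windows with a GATA motif were those of both Nr5a2 start sites and of Lhx9, so this count holds the same gene more than once. Among all 32851 promoter windows the shares were 18.6%, 4.72%, 13.4% and 16.8%, in the same order of motifs. These matches describe letters in the windows and not bound sites.

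Levels between genes were compared as CPM per kilobase of the exon length given in the files. In CPC the order was Gata4 (75.5 ± 4.11), Nr5a1 (42.1 ± 2.29), Emx2 (41.0 ± 10.0), Nr5a2 (22.7 ± 3.04), Esr2 (11.3 ± 2.75), Foxl2 (11.03 ± 2.08), Gata6 (9.69 ± 1.53), Runx1 (9.21 ± 1.75), Wt1 (4.39 ± 1.12) and Lhx9 (0.135 ± 0.0436), as mean ± SD over 3 libraries. In control it was Gata4 (85.4 ± 8.33), Nr5a1 (49.0 ± 3.07), Nr5a2 (35.9 ± 5.78), Emx2 (31.4 ± 4.21), Foxl2 (21.2 ± 4.63), Esr2 (20.9 ± 7.69), Runx1 (15.2 ± 2.62), Gata6 (8.03 ± 1.21), Wt1 (5.62 ± 1.55) and Lhx9 (0.166 ± 0.115). Gata4 led in both groups with no overlap with the next gene, and Lhx9 was last by a wide gap. The part of the GATA4 transfection named in some label fields of both groups was not tested. In CPC the libraries of neighbouring genes overlapped between Nr5a1 and Emx2 and along the chain of Esr2, Foxl2, Gata6 and Runx1. In control they overlapped between Nr5a2 and Emx2, along Foxl2, Esr2 and Runx1, and between Gata6 and Wt1. Emx2 thus stood above Nr5a2 without overlap in CPC and overlapped it in control. Runx1 stood above Gata6 without overlap in control and overlapped it in CPC. With the union of exons in GENCODE M21 as the length, chosen after seeing the data, Emx2 overlapped Nr5a1 in both groups and ranked above it in CPC. Esr2 then stood above Gata6 without overlap in CPC. In control, by that length, Esr2 stood above Runx1 without overlap, Nr5a2 overlapped Foxl2, and Emx2 ranked above Nr5a2.

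**Figure D4:**
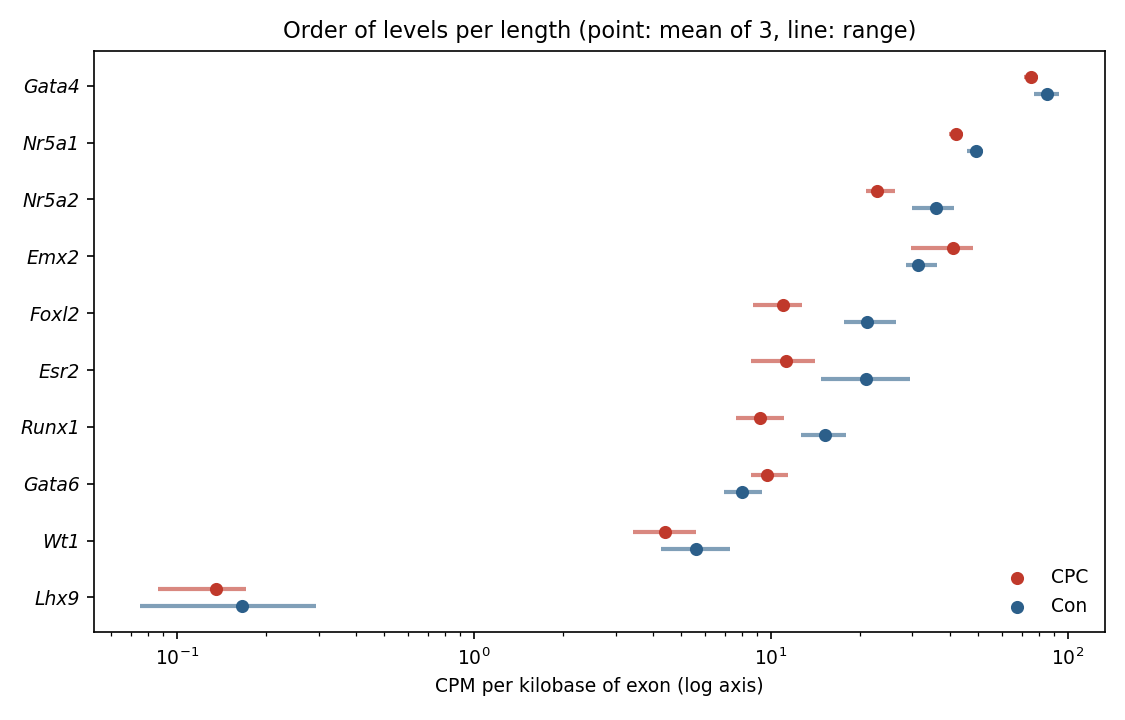
Level of each factor gene as CPM per kilobase of exon on a log axis in CPC (red) and control (blue). Points are means and lines the range of 3 libraries. Gata4 is highest and Lhx9 lowest in both groups, and Foxl2, Esr2, Nr5a1, Nr5a2 and Runx1 have CPC ranges left of their control ranges without overlap.

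Likeness of pattern was measured as the root mean square difference between log2 CPM values over the 6 libraries after each gene's own mean was taken out, among 9246 other protein-coding genes with a mean of at least 10 CPM. The genes most like Foxl2 were Tmem35a (0.09) and Bzw1 (0.09), where Foxl2 itself varied by 0.52 around its mean. For Nr5a2 they were Csrnp3 (0.03) and Maged1 (0.05), with 0.37 for Nr5a2 itself. For Runx1 they were Agtrap (0.03) and Acaa2 (0.07), with 0.42 for Runx1 itself. Among the factors, the smallest distances were between Gata4 and Nr5a1 (0.12), then Foxl2 and Esr2 (0.14) and Foxl2 and Nr5a2 (0.20). Gata4 and Nr5a1 changed little, with log2 changes of -0.18 and -0.22. A small distance also arises where both genes vary little, so this order does not rank how closely genes move together. All values share the same 6 libraries and the group difference, so they describe these libraries.

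Several members overlap or adjoin a gene on the opposite strand, and no source states whether counting used the strand. Foxl2os, which overlaps Foxl2 by 12 bases, had 294, 272 and 289 counts in CPC 1 to 3 and 320, 425 and 255 in control 1 to 3. Its groups overlapped and its log2 change was -0.26 ± 0.17 (edgeR adjusted p = 0.260), which passed without control 3 (-0.43; 0.0324) and without replicate 3 of both groups (-0.44; 0.0470). Emx2os, which overlaps Emx2 by 264 bases, had 351, 418 and 184 counts in CPC 1 to 3 and 257, 302 and 181 in control 1 to 3 (adjusted p = 0.476). As with Emx2, CPC 1 and CPC 2 were above CPC 3. Gata6os and Wt1os had at most 53 and 40 counts in a library, and the antisense gene of Nr5a1 at most 4. Reads of a factor gene and its antisense partner in such overlaps cannot be told apart without strand.

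Among genes described as direct targets of these factors, more were lower than higher in CPC. Of 28 listed genes 24 were tested, and 12 were lower and 1 higher (16 and 2 with the block), with a median log2 change of -0.79 against 0.00 over all tested genes. The 12 are 50% of those tested, where 19.7% of all tested genes were lower, and the 1 higher is 4.17% against 19.6%. The list was chosen with earlier results of these data known, so these shares describe the list and do not test it. Hsd3b1, which makes progesterone, had 6759, 7661 and 12486 counts in CPC 1 to 3 and 46327, 59780 and 70546 in control 1 to 3, and fell by 2.74 ± 0.28 on the log2 scale (standard error; edgeR adjusted p = 7.95e-04). Cyp11a1, the side-chain cleavage enzyme, was 5.08-fold lower in CPC (adjusted p = 0.00263), and Fdx1, its electron donor, 2.69-fold lower (0.00187). Inhbb, which encodes the inhibin βB subunit, had 36.0 ± 3.08 CPM in CPC and 174 ± 17.4 CPM in control (SD, n = 3 each; adjusted p = 8.55e-05). Fshr, the follicle-stimulating hormone receptor gene, had 30, 25 and 33 counts in CPC 1 to 3 and 49, 77 and 80 in control 1 to 3, with no overlap. Its log2 change was -1.25 ± 0.24 (adjusted p = 0.00681), and the call was lost without replicate 1 (0.0502) or 2 (0.0626) of both groups. Amhr2, which encodes the receptor of anti-Müllerian hormone, was 1.69-fold lower in CPC (0.0265), and that call was lost without CPC 1 (0.0908), CPC 3 (0.0777) or control 1 (0.0536), or replicate 1 (0.135) or 3 (0.0509) of both groups. Inha was 1.52-fold lower in CPC (adjusted p = 0.0397), a call lost without any 1 library except CPC 3 (up to 0.113) and with no scaling factors (0.0544). Star, which carries cholesterol into mitochondria, had 475 ± 214 CPM in CPC and 1067 ± 591 CPM in control and passed only with the block and without replicate 3 of both groups (adjusted p = 0.107, 2.99e-05 and 0.0418). Cyp19a1 had 0.920 ± 0.402 CPM in CPC and 0.487 ± 0.107 CPM in control (adjusted p = 0.122). Ptgs2, an ovulatory prostaglandin synthase gene and the 1 target that was higher, was named after its values were seen, at 10668, 7028 and 5583 counts in CPC 1 to 3 and 3131, 2508 and 2599 in control 1 to 3 (adjusted p = 0.00560; 0.0543 without replicate 2 of both groups). Without replicate 1 of both groups 6 of 25 tested targets were lower (13 at an unadjusted p under 0.05, and 10 of 26 by DESeq2). Among all genes edgeR called 1033 lower in that setting, against 2954 with all libraries. Higher targets numbered 2 without CPC 3 or replicate 3 of both groups. With replicate 2 left out in both, edgeR called 0 higher (1 at an unadjusted p under 0.05). Luteal markers, which share Hsd3b1, Star, Akr1c18 and Lhcgr with this list, summed to 2559 to 2964 CPM in CPC and 7087 to 9052 CPM in control.

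**Figure D5:**
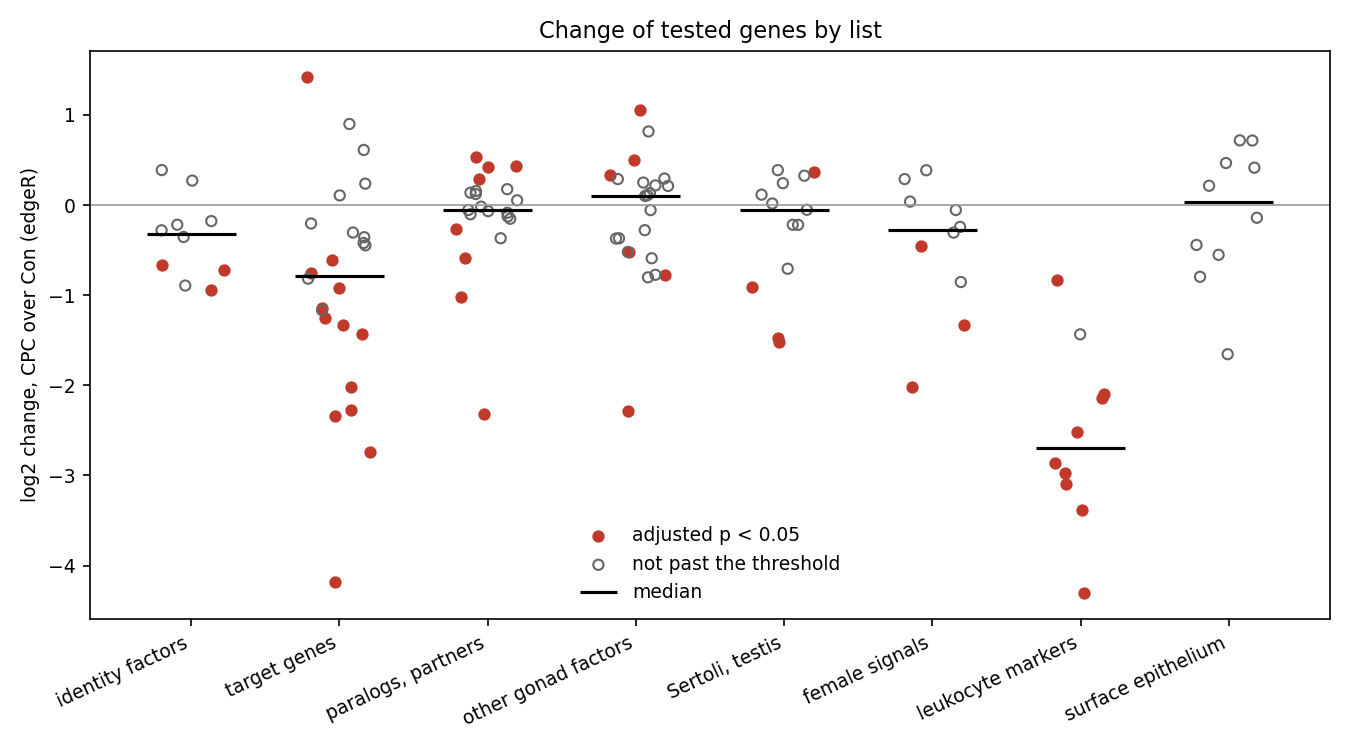
Log2 change of CPC over control for each tested gene of 8 lists, with filled points past an adjusted p of 0.05 by edgeR and bars at the list medians. The identity factors lie between -0.94 and 0.39, and 12 of 24 target genes and 9 of 10 leukocyte markers are filled and below 0.

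Paralogs and binding partners of the factors moved both ways. Of 28 listed genes 21 were tested, and 4 were higher and 4 lower in CPC, each 19.0% where 19.6% and 19.7% of all tested genes were higher and lower. Cited2, which encodes a coactivator that works with WT1 and SF-1 in gonad formation in mice, had 5401, 6163 and 5673 counts in CPC 1 to 3 and 9546, 12625 and 12237 in control 1 to 3. It fell by 1.02 ± 0.12 on the log2 scale (edgeR adjusted p = 0.00112). Nr0b2, which encodes the repressor SHP that binds LRH-1, had 11, 10 and 6 counts in CPC 1 to 3 and 40, 51 and 42 in control 1 to 3, and fell by 2.32 ± 0.30 (adjusted p = 0.00155). Ncor1, a corepressor gene, rose by 0.42 ± 0.08 on the log2 scale (adjusted p = 0.00517; 0.0875 without replicate 1 of both groups). Zfpm2, which encodes the GATA4 cofactor FOG2, had 27.9 ± 2.27 CPM in CPC and 30.5 ± 9.48 CPM in control (SD, n = 3 each; adjusted p = 0.684). Nr0b1, which encodes DAX1, had 0 counts in all CPC libraries and 1, 3 and 0 in control 1 to 3. Higher partners numbered 2 without CPC 1, control 1, control 2 or replicate 2 of both groups, and 0 by edgeR without replicate 1 of both groups (2 at an unadjusted p under 0.05, 1 by DESeq2). Lower partners numbered 2 without replicate 1 or 2 of both groups.

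Other transcription factors of the ovary and the forming gonad had 3 of 23 tested genes higher and 3 lower in CPC, each 13.0%, below the 19.6% and 19.7% of all tested genes. With the block 5 were higher (21.7%, against 26.5% of all tested genes) and 8 lower (34.8%, against 27.9%). Cbx2, a Polycomb gene needed for testis formation in mice, had 775, 692 and 913 counts in CPC 1 to 3 and 295, 488 and 346 in control 1 to 3. The groups did not overlap, and Cbx2 rose by 1.05 ± 0.15 on the log2 scale (edgeR adjusted p = 0.00220). Id1, an inhibitor of helix-loop-helix factors, was 1.71-fold lower in CPC (0.00637; 0.0720 without replicate 1 of both groups). Higher genes of this list numbered 1 without CPC 3, control 1 or replicate 1 of both groups. Lower ones numbered 5 without control 3 and 1 without replicate 1 of both groups.

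Genes of the Sertoli and testis pathway, some of which FOXL2 holds down in the mouse ovary, did not include Sox9 or Dmrt1 among those past the threshold. Sox9 had 123, 73 and 115 counts in CPC 1 to 3 and 89, 66 and 81 in control 1 to 3. The groups overlapped, with a log2 change of 0.33 ± 0.26 (edgeR adjusted p = 0.348). Dmrt1 had 1 count in CPC 2 and 0 in the other libraries, and Sox10 had 0 in all. Of 13 tested genes of the list, which includes Nr5a1 and shares Ptch1 with the theca and stroma markers, 1 was higher and 3 lower. These are 7.69% against 19.6% of all tested genes and 23.1% against 19.7%, so the lower share lay near that of all genes. Ptch1, the hedgehog receptor gene, had 61.2 ± 2.56 CPM in CPC and 47.7 ± 3.88 CPM in control (SD, n = 3 each; adjusted p = 0.0145), a call lost without control 1 (0.0555) or replicate 1 of both groups (0.176). Ptgds, a prostaglandin D2 synthase gene, had 28, 48 and 34 counts in CPC 1 to 3 and 58, 139 and 110 in control 1 to 3, and was 2.77-fold lower in CPC (0.0156; 0.0502 without CPC 1, 0.0862 without replicate 3 of both groups). Aard was 2.87-fold lower in CPC (0.0277), a call lost without CPC 1 (0.0850), CPC 2 (0.0755), control 1 (0.0759) or control 3 (0.0789). Ttyh1 was 1.88-fold lower in CPC (0.0398), a call lost without any 1 library except control 2 (up to 0.118). Lower genes numbered 0 without CPC 1 (3 at an unadjusted p under 0.05), and 1 without control 1, control 3, or replicate 1 or 3 of both groups. Higher ones numbered 0 by edgeR without control 1 (1 at an unadjusted p under 0.05) and without replicate 1 of both groups (0 unadjusted and by DESeq2).

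Signals of the female pathway, of which Fst and Bmp2 are also listed targets, had 3 of 10 tested genes lower in CPC, 30.0% against 19.7% of all tested genes. None of the 10 was higher (0 also by DESeq2 and at an unadjusted p under 0.05), against 19.6% of all tested genes. Fst, which encodes the activin antagonist follistatin and is a FOXL2 target, had 1508, 2002 and 1701 counts in CPC 1 to 3 and 3816, 5753 and 3445 in control 1 to 3. The groups did not overlap, and Fst fell by 1.34 ± 0.21 on the log2 scale (edgeR adjusted p = 0.00403). Bmp2, which encodes a growth factor, had 91, 131 and 100 counts in CPC 1 to 3 and 283, 810 and 225 in control 1 to 3 (adjusted p = 0.0195). That call was lost without CPC 1 (0.0708), without CPC 3 (0.0726), without replicate 1 (0.109) or 3 (0.0556) of both groups and with no low-count filter (0.0856). Ctnnb1, which encodes β-catenin, was 1.37-fold lower in CPC (0.0115), a call lost without replicate 1 (0.137) or 2 (0.0757) of both groups. Wnt4, which encodes the ligand that drives ovarian fate, had 23.8 ± 11.1 CPM in CPC and 42.9 ± 16.3 CPM in control (SD, n = 3 each; adjusted p = 0.155). It passed with the block (1.41e-04) and by DESeq2 (0.0482). Without replicate 1 of both groups 1 gene of this list was lower.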

How the data were processed

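RNA sequencing counts of 6 libraries were used, 3 CPC and 3 control, grouped and numbered by their titles. Each deposited file gives whole-number counts, exon length, symbol and location per gene on GRCm38.p6, per the file headers. Libraries came from column-purified RNA by a SMARTER mRNA-seq kit, per the labels' protocols. Bowtie2, RSEM and the human build hg19 are listed, per the submitters' processing notes, which is at odds with mouse genes and whole counts, so the counting tool is uncertain. The sources used here do not give read assignment or strand. The exon length in the files, per the file headers, was shorter than the union of exons in GENCODE M21 for 9 of 10 members, which bears on levels per kilobase. By the union, the mean log2 ratio of Esr1 to Esr2 was -4.97 in CPC and -5.39 in control, against -3.95 and -4.37. Group differences in the paralog ratios stayed the same.

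Genes were filtered with filterByExpr (15000 of 26620 with any count), scaled by TMM and tested with edgeR 4.0.16 (quasi-likelihood, robust, no covariate) in R 4.3.3, with Benjamini-Hochberg adjustment over all tested genes at 0.05. Each standard error was taken as the absolute log2 change over the root of its F statistic. CPM of single genes are TMM-scaled, and marker sums are plain CPM. Differences in pairs and pattern distances used log2(CPM + 0.5). Depth limits precision for genes such as Lhx9 and Cyp19a1 with under 30 counts per library.

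The members and lists were chosen with earlier results of these data known. All members were named; other genes came from a rule of up to 4 per list with the smallest adjusted p plus 14 genes whatever their values. Runx3, Ptgs2, Sox10, Inhba, Insl3, Cyp17a1 and Lhcgr were named after their values were seen. Some listed genes that this rule names are not reported here.

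After group means were removed, libraries of equal number correlated at 0.626, 0.576 and 0.596 and others at -0.238 to -0.342, so the numbers paired the libraries, as judged from the data. Alternatives were the replicate block, DESeq2 1.42.0, limma-voom (limma 3.58.1), RLE factors, unscaled library sizes, all genes kept, a minimum of 5 CPM in 3 libraries and leaving out libraries. The script was tested on simulated counts for CPC with control (15000 genes, 200 changed), and recovered 16.4%, 56.7% and 83.3% of genes changed 1.5-, 2- and 4-fold, with 13 of 117 calls false. That false share lay above the threshold of 0.05. The simulated libraries were drawn without pairs and held far fewer changed genes than the 5899 called in the data. The recovered shares therefore do not give the sensitivity reached in the data.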

Additional observations from a re-analysis of the deposited data

How the results depend on the processing

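Direction of the log2 change was kept for all members except Lhx9 under every alternative run; Lhx9 turned to 0.44 without control 3 and to 0.24 without replicate 3 of both groups, and the cause was not tested. With the replicate block, which pairs libraries of equal number, 6 members were lower and 1 higher, 5 and 8 other gonad factors higher and lower, and 2 targets higher; no list count of partners, Sertoli or female genes moved by over 1.5 times. The block called 27.9% of all tested genes lower and 26.5% higher. With the filter of 5 CPM in 3 libraries 5 of 9 tested members were lower. Among all genes 2442 were lower with that filter, against 2954 in the main fit. Leaving out 1 library or 1 replicate number gave 928 to 2613 genes higher (1932 without control 1, 1736 without replicate 2 of both groups) and 1033 to 2576 lower (1650 without replicate 2 of both groups), Lhx9 changes of -0.64 to 0.44, 0 to 1 members higher and 0 to 4 lower, 0 to 3 partners higher and 2 to 4 lower, 1 to 3 other gonad factors higher and 1 to 5 lower, 0 to 2 targets higher and 6 to 13 lower, 0 to 1 Sertoli genes higher and 0 to 3 lower, 1 to 3 female genes lower, and log2 differences in the Esr1 to Esr2 ratio of -0.076 to 0.70. DESeq2 without replicate 1 of both groups, added after seeing the data, gave 1353 genes higher and 1488 lower, 1 member lower, 1 partner higher, 1 other gonad factor higher, and 0 Sertoli genes higher and 1 lower. Fewer libraries carry these counts. The mean paired difference in each paralog ratio equals the unpaired one, since the groups are balanced.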
